A study of Rattus norvegicus with 14 samples.

Results

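Lights off was bracketed in the rat pineal gland by a pool collected at zeitgeber time 13 (ZT13), 1 h before darkness, and a pool collected at ZT15, 1 h after it began. The comparison below covers the 6376 genes, of 16472 measured, that reached 5 FPKM (fragments of a transcript per kilobase of its length, scaled to the library's total) in either pool. Both pools held pineal glands of 10 Sprague-Dawley rats aged 6 to 8 weeks housed with lights on for 14 h and off for 10 h each day, with no genetic change or treatment named. The same tissue was pooled at ZT1, ZT7, ZT19 and ZT23, the retina was pooled at the same 6 times, and mixed-tissue pools were collected at ZT7 and ZT19. Each tissue and time had 1 library, so every difference here is between single pools and has no replicate check.

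The pineal gland makes melatonin at night, under control of the circadian clock in the suprachiasmatic nucleus, whose signal reaches it through sympathetic nerves. Noradrenaline released in darkness acts on adrenergic receptors, raises cyclic AMP, and switches on genes such as Aanat, the penultimate enzyme of melatonin synthesis. In the rat this switch is known to lag behind the onset of darkness. The gland lies beside the meninges, the choroid plexus (the epithelium that makes cerebrospinal fluid) and the cerebellum. Genes of the meninges and the choroid plexus were listed apart. A list of cerebellar genes was added only after the values were seen.

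Summed FPKM was 174889 in the ZT13 pool and 180522 in the ZT15 pool, and 9336 and 9251 genes reached 1 FPKM. Read counts were not used, and depth was estimated from the lowest olfactory receptor values. By that rough estimate, 5 FPKM in a transcript of 1 kb stood for about 147 fragments at ZT13 and 141 at ZT15. The tissue label was checked against 13 pinealocyte markers, which all passed 5 FPKM and summed to 7791 FPKM at ZT13 and 8475 at ZT15. Their sum was 3140 to 4265 FPKM in the 6 retina pools and 468 and 667 FPKM in the mixed-tissue pools. Tph1, the first enzyme of serotonin synthesis, stood at 3716 and 3848 FPKM. In pools of tissue, fewer cells of a type and less RNA per cell cannot be told apart.

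Few genes differed by 2-fold across lights off. Differences are given on the scale log2(FPKM + 1), ZT15 minus ZT13, which understates the fold of weakly expressed genes. Of the 6376 genes, 19 rose at least 2-fold (0.298%) and 19 fell at least 2-fold (0.298%), 38 in all (0.596%). The median difference was 0.02, with 3505 genes above 0 and 2871 below, and 95% of genes lay between -0.42 and 0.42. At 1.5-fold the counts were 65 higher and 86 lower, and at 3-fold 6 and 4. Most called genes were weakly expressed: 15 of the 19 rises were under 20 FPKM at ZT15 and 16 of the 19 falls under 20 FPKM at ZT13, and with 5 FPKM added in place of 1 the counts were 5 and 3. Close inside the fold threshold lay Tomm7 (1.01) and Cxcl10 (-1.02), and just outside it Psmd10 (0.97) and C4b (8.01 and 3.51 FPKM). At the level threshold, Dock9 was the lowest gene kept, at 5.002 FPKM in the ZT15 pool, and Rgs2 the highest left out, at 4.996 FPKM.

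The 2-h step across lights off held as few calls as the 6-h step before it and far fewer than the step after it. From ZT7 to ZT13, 38 genes of 6308 passed 2-fold (0.602%), and from ZT15 to ZT19, 4 h apart, 370 of 6337 did (5.84%), 207 higher and 163 lower. The steps from ZT19 to ZT23 (2.03%), ZT23 to ZT1 (1.85%, also 2 h apart) and ZT1 to ZT7 (1.94%) lay between them. Neighbouring steps share a pool, and their lengths differ. The retina, in the same 2 h across lights off, had 9 calls among 6357 genes (0.142%), 8 higher and 1 lower.

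**Figure D1:**
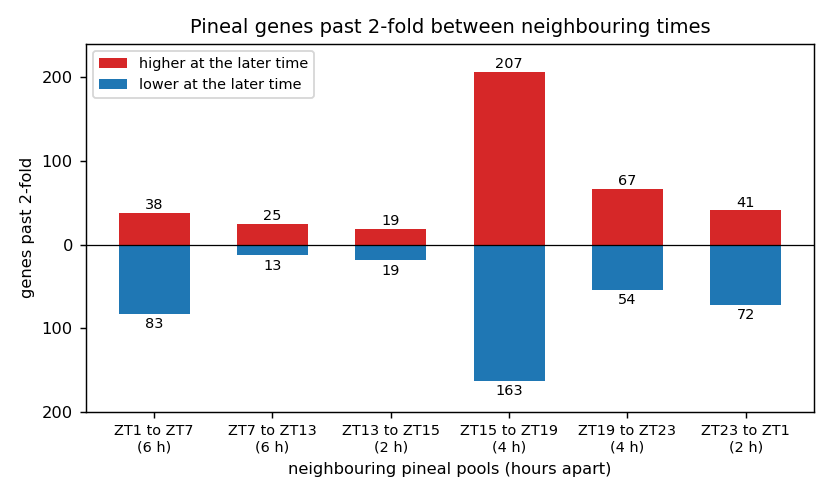
Pineal genes past 2-fold between neighbouring pools, with genes higher at the later time above the line and genes lower below it. The step from ZT13 to ZT15 has 19 genes on either side, and the step from ZT15 to ZT19 has 207 and 163.

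**Figure D2:**
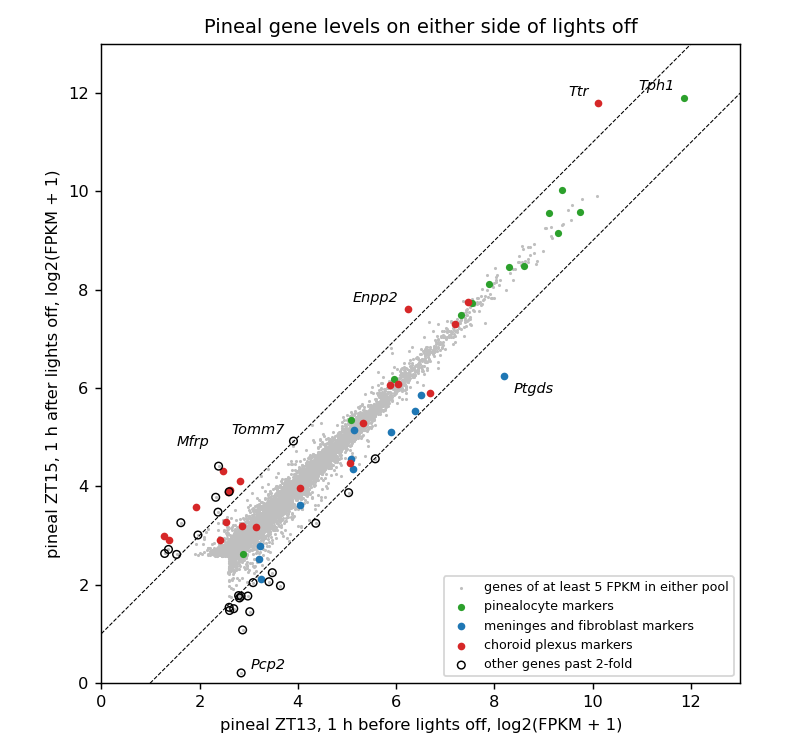
Level of each of the 6376 genes in the ZT13 pool (x axis) and the ZT15 pool (y axis), as log2(FPKM + 1); dashed lines mark a 2-fold difference on this scale. Of the choroid plexus markers 9 of 21, such as Ttr, lie above the band. Of the markers of meninges and fibroblasts 2 of 11, such as Ptgds, lie below it. The other markers of both lists and the pinealocyte markers lie within it.

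Choroid plexus genes were the largest group among those that rose. Of 32 listed choroid plexus markers 29 were measured and 21 reached 5 FPKM, and 9 of these 21 rose at least 2-fold while none fell, against 0.298% of all genes in each direction. Their median difference was 0.49, beside 0.02 over all genes. Summed over the 29 measured markers the level was 1868 FPKM at ZT13 and 4531 at ZT15, and 1097 to 1670 in the other 4 pineal pools. Most of that sum was Ttr. Without Ttr the sums were 764 FPKM at ZT13, 964 at ZT15 and 434 to 602 elsewhere. The 6 retina pools held 265 to 336 FPKM with Ttr, and the mixed-tissue pools 1086 and 1105.

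Ttr (rn4 chromosome 18, 12406571 to 12413680) encodes transthyretin, the carrier of thyroid hormone and retinol that the choroid plexus secretes. It stood at 1152, 995 and 1104 FPKM at ZT1, ZT7 and ZT13, at 3566 FPKM at ZT15, and at 1087 and 663.5 FPKM at ZT19 and ZT23. The ZT15 pool alone stood apart, 3.23 times the ZT13 pool (1.69 on the log2 scale). Ttr made up 0.631% of summed FPKM at ZT13 and 1.98% at ZT15. Ttr was second only to Tph1 in both pools, so quantile normalization, which gives genes of equal rank 1 value, left it no difference (0.00).

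Other markers were close to absent at some times. Sostdc1, a secreted inhibitor of BMP and Wnt signals, stood at 2.30, 0.673 and 4.57 FPKM at ZT1, ZT7 and ZT13, at 18.9 FPKM at ZT15 and at 1.91 and 1.69 FPKM at ZT19 and ZT23 (difference across lights off 1.84). Cldn2, a pore-forming tight junction protein, stood at 1.40, 0.183 and 1.43 FPKM in the light pools and at 6.89, 1.02 and 0.745 FPKM in the dark pools (1.70). Folr1, the folate receptor through which folate enters cerebrospinal fluid, went from 2.80 to 10.9 FPKM across lights off and lay between 0.484 and 1.85 FPKM elsewhere (1.64). The membrane protein gene Tmem72 was listed at 0 at ZT7, at 1.61 FPKM at ZT13 and at 6.54 FPKM at ZT15 (1.53). It was the one marker of the list at 0 in any pineal pool.

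The remaining 4 markers past 2-fold were expressed in all 6 pools. Enpp2, or autotaxin, which makes lysophosphatidic acid, stood at 74.4 FPKM at ZT13 and 193.9 FPKM at ZT15, and at 28.9 to 71.9 FPKM elsewhere (1.37). Kcnj13, an inward rectifier potassium channel, went from 4.99 to 13.8 FPKM (2.77 times), and Kl, the Klotho protein that acts with FGF23, from 5.12 to 14.1 FPKM (2.75 times). Clic6, an intracellular chloride channel protein, went from 6.05 to 16.2 FPKM (1.29). In all 9 markers the ZT15 pool was the highest of the 6, by 2.61 to 4.80 times the next pool, and in 8 of 9 the ZT13 pool came next and the ZT7 pool was the lowest. Ttr was the exception on both counts.

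The genes that share this pattern include 3 that were not on the list: Mfrp, Htr2c and Ace, all known from choroid plexus, were grouped with it after their values were seen. Mfrp, a membrane frizzled-related protein (rn4 chromosome 8, 47084056 to 47089218), had the largest rise of all 6376 genes, from 4.22 to 20.2 FPKM (2.02), and lay between 0.191 and 2.73 FPKM in the other 4 pools. Htr2c, the serotonin 2C receptor, went from 2.07 to 8.57 FPKM (1.64), and Ace, the angiotensin-converting enzyme, from 4.02 to 12.7 FPKM (1.45). In all 3 the order of the ZT15, ZT13 and ZT7 pools was as in the markers above. Mfrp also stood at 3.74 to 9.66 FPKM in the retina pools, above the 2.84 and 3.48 FPKM of the mixed-tissue pools. With these 3 genes, 12 of the 19 rising genes were grouped with choroid plexus. As they were picked from the rising genes, that count is a description.

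The other 12 listed markers above 5 FPKM did not pass 2-fold. Of these, 8 stood at 10 FPKM or more at ZT7, the time when most rising markers were lowest. Otx2, a transcription factor gene also on the pineal list, stood at 145 and 156 FPKM across lights off (0.11), Col8a1, a collagen, at 175 and 215 FPKM (0.30), and Slc4a5, a sodium bicarbonate cotransporter, at 57.2 and 66.1 FPKM (0.20). Kcne2, a potassium channel subunit, stood at 64.4 and 66.8 FPKM (0.05), F5, coagulation factor V, at 39.3 and 38.1 FPKM (-0.04), and the water channel gene Aqp1 at 15.6 and 14.6 FPKM (-0.09). Igf2, a growth factor, was lower at ZT15, at 101.6 and 58.5 FPKM (-0.79), as was its binding protein gene Igfbp2, at 32.4 and 21.3 FPKM (-0.58). The other 4 of the 12 stood between 1.93 and 3.68 FPKM at ZT7. Of the 9 markers that rose, 7 stood between 0 and 2.49 FPKM at ZT7, while Ttr and Enpp2 stood higher. A low ZT7 level was thus not particular to the markers that rose. Among the 12 the largest difference was 0.74, and in 7 the ZT15 pool was highest and the ZT13 pool next. Of the 8 markers under 5 FPKM, Car12 (1.10 and 3.84 FPKM) and Prlr (0.613 and 2.31 FPKM) had differences over 1 on the log2 scale.

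**Figure D3:**
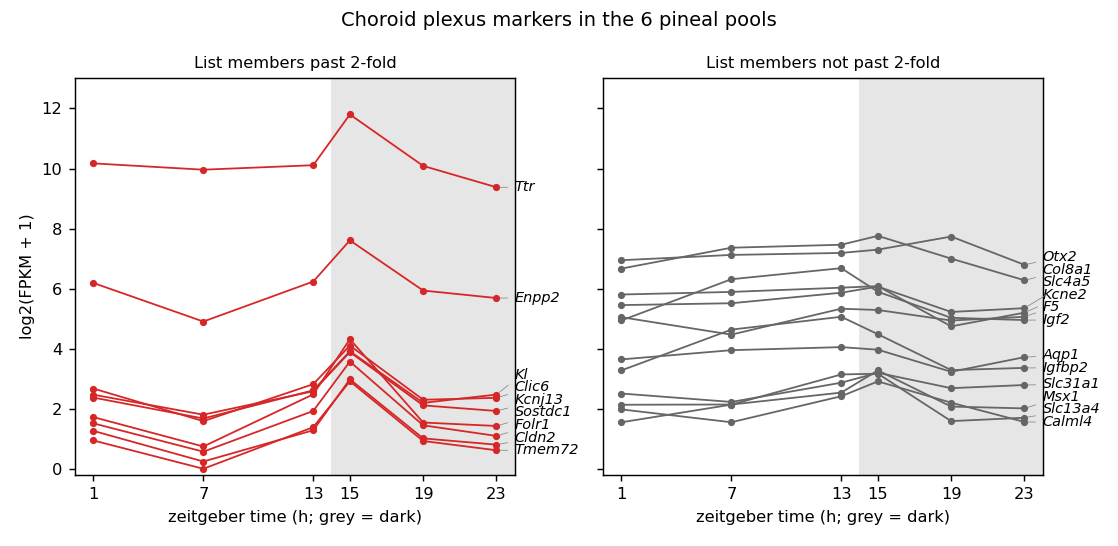
Choroid plexus markers of at least 5 FPKM in the 6 pineal pools, as log2(FPKM + 1) against zeitgeber time; grey marks darkness and each line is 1 gene. The 9 markers on the left peak in the ZT15 pool, while the 12 on the right, such as Otx2 and Kcne2, have no such peak of 2-fold.

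The ZT15 pool was also highest of the 6 for 16 of the 21 choroid plexus markers above 5 FPKM, and for 1546 of all 6376 genes (24.2%). Cilia and ependyma markers, which mark the lining of the ventricles, summed to 7.92 FPKM at ZT13 and 10.7 FPKM at ZT15, and to 2.79 to 6.27 FPKM elsewhere. Only Mlf1 of these 8 measured markers reached 5 FPKM (5.70 and 5.38). The part of attached choroid plexus in the rises was not tested. In the retina, 14 of the 38 pineal genes past 2-fold reached 5 FPKM, with 0 of them called, against 0.142% of all retinal genes. Their differences there lay between -0.38 (Ttr) and 0.66 (Tomm7), with Rpl41 at 0.57.

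The other 7 rising genes formed no list. Spink4, a serine protease inhibitor gene, stood at 1.58 FPKM at ZT13, 5.56 FPKM at ZT15 and at least 3.24 FPKM in the other pools, so that the ZT13 pool was low rather than the ZT15 pool high (1.35). Rgs16, which shortens G protein signals, went from 1.89 FPKM, its lowest of the 6 pools, to 5.12 FPKM, its highest (1.08). Chchd5, a small mitochondrial protein gene, did the same, from 4.18 to 10.1 FPKM (1.10). Tomm7, a subunit of the mitochondrial import pore, went from 14.0 to 29.2 FPKM (1.01), but stood at 43.8 FPKM at ZT23.

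Among these 7, the ribosomal protein genes Rpl41 (5.06 to 13.8 FPKM, 1.29) and Rps27 (1.44 to 5.20 FPKM, 1.34) have many near-identical copies in the genome, which makes their levels uncertain. The listed ribosomal protein genes, 17 of them above 5 FPKM, had a median difference of 0.06 and none past 2-fold, against 0.596% of all genes. AA926063, a transcript known by its clone name, went from 2.90 to 7.04 FPKM (1.04). Without the choroid plexus list the rises numbered 10.

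Below these stood genes just short of 2-fold on the scale with 1 FPKM added. In plain FPKM several of them passed it, among them Psmd10 (2.06 times), Atp2b3 (2.19 times), Brp44 (2.19 times) and Gas5 (2.17 times). Psmd10, a proteasome assembly chaperone, stood at 9.44 and 19.5 FPKM (0.97), but the ZT7 pool, with 20.1 FPKM, was higher still. Mdk, the growth factor midkine, stood at 13.9 and 27.4 FPKM, with 7.37 to 12.3 FPKM in the other pools (0.93). Atp2b3, a plasma membrane calcium pump, stood at 3.52 and 7.71 FPKM (0.95), with 1.79 to 2.68 FPKM elsewhere. For Mdk and Atp2b3, as for the choroid plexus markers, the ZT15 pool was the highest of the 6 and the ZT13 pool came next. Gng13, a G protein gamma subunit, stood at 59.3 and 103.7 FPKM (0.80), below its 127.9 FPKM at ZT23. Its difference in the retina was 0.71.

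The genes that fell were highest in the ZT13 pool. In 17 of the 19 the ZT13 pool was the highest of the 6 pineal pools, against 20.6% of all 6376 genes, and in 10 the ZT15 pool was the lowest, against 5.83%. Both shares follow in part from the choice of genes by this contrast and are given as a description. Against the mean of the light pools ZT1, ZT7 and ZT13, 13 genes were lower at ZT15, of which 1 was among the 19, while 26 were higher, of which 14 were among the 19 rises. With the ZT13 pool left out of that mean, 1 of the 19 falls and 13 of the 19 rises were called.

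Ptgds, the prostaglandin D2 synthase that leptomeningeal cells secrete (rn4 chromosome 3, 3632683 to 3635617), stood at 36.1, 185.0 and 293.5 FPKM at ZT1, ZT7 and ZT13 and at 74.3, 119.6 and 65.5 FPKM at ZT15, ZT19 and ZT23 (-1.97). Its level at ZT15 was 0.253 of that at ZT13, but not below the ZT1 and ZT23 pools. Aldh1a2, which makes retinoic acid in meninges, stood at 3.41, 6.27 and 8.56 FPKM in the light and at 3.34, 4.76 and 3.97 FPKM in the dark (-1.14). These were the 2 members past 2-fold among the 11 markers of meninges and fibroblasts above 5 FPKM, against a background of 0.298% lower. The list had a median difference of -0.68, with 10 of 11 below 0.

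The collagen and matrix genes of that list were lower without passing 2-fold. Col1a2 stood at 82.5 and 45.3 FPKM (-0.85), Col1a1 at 58.9 and 33.5 FPKM (-0.80) and the proteoglycan gene Ogn at 33.7 and 19.4 FPKM (-0.76). The exception was Mgp, matrix Gla protein, at 34.4 and 34.6 FPKM (0.01). Summed over the 12 measured members the list stood at 669 FPKM at ZT13 and 313 FPKM at ZT15, and at 285 to 466 FPKM in the other pools. For 9 of the 11 the ZT13 pool was the highest, and for 0 of the 11 was the ZT15 pool.

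Other falling genes encode a transporter and junction proteins. Slc13a3, a carrier of dicarboxylates, stood at 0.426, 2.71 and 6.33 FPKM at ZT1, ZT7 and ZT13 and at 1.11, 1.98 and 1.48 FPKM at ZT15, ZT19 and ZT23 (-1.80). Gjb6 (9.64 to 3.16 FPKM, -1.35) and Gjb2 (10.2 to 3.73 FPKM, -1.24) encode the gap junction proteins connexin 30 and connexin 26. For each of these the ZT13 pool was highest and the ZT7 pool, also in the light, came next.

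Several of the remaining falls, grouped here after their values were seen, encode matrix, adhesion and related proteins. Vtn, vitronectin, stood at 8.48 FPKM at ZT7, 11.5 FPKM at ZT13 and 2.93 FPKM at ZT15 (-1.67). Alcam, an adhesion molecule, stood at 19.6 FPKM at ZT13 and at 6.09 to 9.92 FPKM in the other pools (-1.12). The carboxypeptidase genes Cpz (5.47 to 1.84 FPKM, -1.19) and Cpxm1 (5.10 to 1.77 FPKM, -1.14), the proteoglycan gene Gpc3 (6.18 to 2.39 FPKM, -1.08) and the matricellular gene Nov (5.07 to 1.90 FPKM, -1.06) had their highest pool at ZT13 and their lowest at ZT15. So did Tpm2, a tropomyosin (6.89 to 2.40 FPKM, -1.22), and S100a6, a calcium-binding protein (31.7 to 13.6 FPKM, -1.16). Also highest in the ZT13 pool were the complement gene C4b and the smooth muscle gene Myl9 (13.1 and 6.34 FPKM, -0.94). So were the chemokine gene Cxcl12 (6.82 and 3.15 FPKM, -0.91) and Aebp1 (17.7 and 8.95 FPKM, -0.91). All were just short of 2-fold with 1 FPKM added, though C4b, Myl9 and Cxcl12 passed it in plain FPKM.

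Lists of glial, vascular and blood cell markers had medians below 0, with 0 members past 2-fold, against 0.596% of all genes. Astrocyte markers had a median difference of -0.43, with 7 of 8 below 0. They lay between -0.62, for the intermediate filament gene Gfap (11.7 and 7.23 FPKM), and 0.17. Endothelial and mural cell markers had a median of -0.28, with 5 of 8 below 0 and 3 above, from Tagln, a smooth muscle gene (-0.81), to Plvap, an endothelial gene (0.16). Oligodendrocyte markers had a median of -0.49 with 3 of 3 below 0, microglia and macrophage markers -0.24 with 6 of 6 below 0, and blood markers -0.14 with 4 of 5 below 0. Summed over each list, the ZT13 pool was the highest of the 6 for all 5 of these lists. Markers of Schwann cells and sympathetic fibres had a median of -0.24 over 2 genes. Pinealocyte markers had a median of 0.16 and brain neuron markers 0.16, and the ZT13 pool held the lowest sum of the pinealocyte markers. The part of these surrounding cells in the falls was not tested.

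The largest fall belonged to Pcp2, a gene of cerebellar Purkinje cells and retinal bipolar cells (rn4 chromosome 12, 2529953 to 2531706). It stood at 6.19 FPKM at ZT13 and at 0.149 FPKM at ZT15, and between 0 and 0.184 FPKM in the other 4 pineal pools (-2.64), so only the ZT13 pool of the 6 held more than 0.2 FPKM. The 6 retina pools held 116 to 204 FPKM, the highest levels of the series, so Pcp2 is not particular to cerebellum. A list of 15 cerebellar genes was drawn up after this was seen. For 12 of the 15 the ZT13 pool was the highest of the 6 pineal pools, and for 2 of the 5 that reached 5 FPKM. The share was 20.6% of all genes of at least 5 FPKM, a level that 10 of the 15 did not reach. As Pcp2 prompted the list and is counted in it, these counts are a description. Gabra6, the GABA receptor subunit of granule cells, stood at 1.73 FPKM at ZT13 and was listed at 0 at ZT1, ZT7, ZT15 and ZT23. The Ca2+ buffer gene Pvalb stood at 3.35 FPKM at ZT13 and 0.732 FPKM at ZT15, and Cbln3, a granule cell precerebellin, at 0.630 FPKM at ZT13 with 0 listed in the other 5 pools. The mixed-tissue pool at ZT7 held 69.4 FPKM of Pcp2 and 20.8 FPKM of Gabra6. The 4 list members at 5 FPKM or more besides Pcp2, namely Calb1, Car8, Zic1 and Itpr1, lay between -0.30 and 0.17.

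Interferon response genes are described last among the falls. Cxcl10, an interferon-induced chemokine, stood at 2.06, 1.04 and 5.93 FPKM at ZT1, ZT7 and ZT13 and at 2.42, 1.01 and 0.637 FPKM at ZT15, ZT19 and ZT23 (-1.02). Ifi27l2b fell from 7.50 to 3.11 FPKM (-1.05), though its highest pool was ZT1, at 8.08 FPKM. On a list of 37 such genes, also drawn up after the values were seen, 22 reached 5 FPKM, with 22 of 22 below 0, against 2871 of all 6376 genes, and a median of -0.61. These 2 passed 2-fold, against 0.298% of all genes lower. For 20 of the 22 the ZT13 pool was the highest of the 6, against 20.6% of all genes. As the list was drawn up from the values, these counts are a description. Usp18, which restrains interferon signalling, stood at 8.04 FPKM at ZT13, 4.52 FPKM at ZT15 and 0.942 to 2.05 FPKM elsewhere, and the antiviral gene Mx2 at 15.8 FPKM, 8.09 FPKM and 1.85 to 9.27 FPKM.

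**Figure D4:**
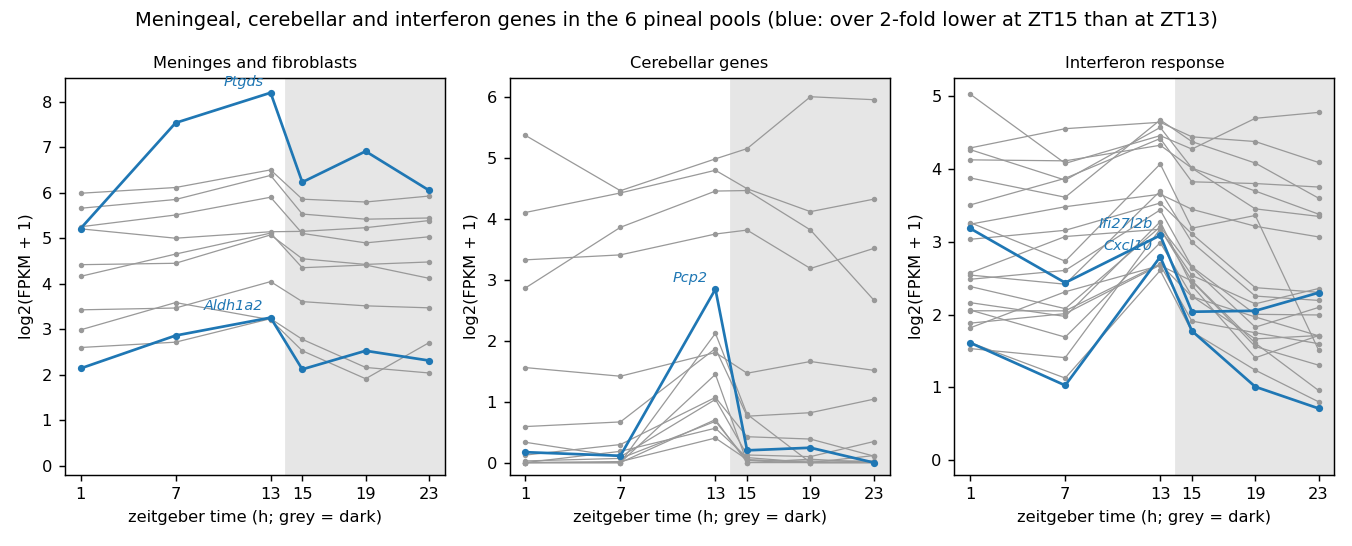
Markers of meninges and fibroblasts (left, genes of at least 5 FPKM), 15 cerebellar genes (middle) and interferon response genes (right, genes of at least 5 FPKM) in the 6 pineal pools, as log2(FPKM + 1) against zeitgeber time. Blue lines are genes over 2-fold lower at ZT15 than at ZT13; Pcp2 is above 0.2 FPKM in the ZT13 pool alone of these 6.

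Genes of the melatonin pathway and its control were not among those past 2-fold. The 20 pathway lists held 221 different genes above 5 FPKM, of which 0 passed 2-fold, against 0.596% of all genes, with differences from -0.75 to 0.82 and a median of 0.06. At that share of all genes a count of 0 in a list of this length says nothing particular about its members. Among 10 melatonin synthesis genes, Aanat stood at 6.35 and 5.13 FPKM (-0.26), near its 7.05 FPKM at ZT7, and at 650.3 FPKM at ZT19. Asmt, the last enzyme of the pathway, stood at 237 and 278 FPKM (0.23), and Ddc, which makes serotonin, at 163 and 217 FPKM (0.41). The largest difference of the list was that of Pts, an enzyme of tetrahydrobiopterin synthesis, at 7.17 and 11.4 FPKM (0.60).

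On the receiving side of the sympathetic signal, the receptor genes Adrb1 (36.2 and 41.6 FPKM, 0.19) and Adra1b (22.4 and 19.3 FPKM, -0.20) lay within the central 95% of genes. Crem, whose product ICER represses cyclic AMP targets, stood at 5.18 FPKM at ZT7, 6.08 at ZT13, 8.49 at ZT15 and 179 FPKM at ZT19, so its difference across lights off was 0.42. The cyclic AMP-induced kinase gene Sik1 was under 5 FPKM in both pools, at 1.77 and 1.62 FPKM, as was Nr4a1, a nuclear receptor, at 4.11 and 3.99 FPKM. The hedgehog receptor gene Ptch1 stood at 10.3 and 11.9 FPKM (0.19), and Dio2, which activates thyroid hormone, was under the level threshold, at 0.285 and 0.209 FPKM.

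Genes of the later night were then taken as a set, chosen without the ZT13 and ZT15 pools. They were the 43 genes at least 4-fold higher at both ZT19 and ZT23 than at ZT7 (on FPKM + 1) and at least 5 FPKM in 1 of those 3 pools. Their median difference across lights off was -0.03, with 20 above 0 and 23 below, and from ZT15 to ZT19 it was 2.94. The value of 2.94 follows in part from the choice of genes by a high ZT19 level and is given as a description. None rose 2-fold across lights off and 1 fell, Fcer1a, the IgE receptor alpha chain, from 6.02 to 2.31 FPKM (-1.08), before 163.8 FPKM at ZT19. Over all genes 0.298% passed 2-fold in each direction. As only 19 of the 43 reached 5 FPKM at ZT13 or ZT15, the 0 rises are near that share and are no result about the set.

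A few night genes stood higher at ZT15 without passing 2-fold. Plk5, a polo-like kinase family member, stood at 7.38, 13.7, 20.9 and 34.4 FPKM at ZT7, ZT13, ZT15 and ZT19 (0.58 across lights off). Cd24, a cell surface protein gene, stood at 15.3, 21.9, 32.2 and 189 FPKM at the same times (0.54). Along with Crem these were the 3 largest positive differences of the set, and Crem and Cd24 rose far more by ZT19. In 30 of the 43 the ZT15 level was no higher than the higher of the ZT7 and ZT13 levels. No share of all genes stands beside this count, so it is no result about the set.

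The 80 day genes, at least 2-fold lower at both ZT19 and ZT23 than at ZT7, had a median difference of -0.06, with Rpl41 past 2-fold higher and Vtn past 2-fold lower, against 0.298% of all genes in each direction. Opn1sw, the short-wavelength opsin, had the lowest value of the phototransduction list, at 44.8, 40.3, 23.6 and 10.2 FPKM at ZT7, ZT13, ZT15 and ZT19 (-0.75). Within the same list Gngt1, a transducin gamma subunit, had the highest, at 665 and 1040 FPKM (0.64). Sag, the rod arrestin, stood at 314 and 350 FPKM (0.16), Pdc, phosducin, at 411 and 393 FPKM (-0.06), and Crx, the photoreceptor lineage factor, at 160 and 177 FPKM (0.15).

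Clock genes had a median difference of 0.16, above the upper quartile of all genes (0.12), and several were at or near their highest level of the day in both pools. A median of this size was not particular to them. It was 0.18 for photoreceptor and pineal transcription factors and 0.16 for pinealocyte and brain neuron markers. Heat shock and chaperone genes, photoreceptor structure and visual cycle genes, and cold-inducible RNA-binding genes each had 0.15. Phototransduction genes and hedgehog and insulin signalling genes had 0.14, and choroid plexus markers 0.49. Several other lists lay lower. Of 22 listed clock genes, 17 were measured and 12 reached 5 FPKM, of which 8 were above 0. None passed 2-fold, which at 0.596% of all genes is near the background. The largest difference was that of Per3, a period gene, at 17.0 and 25.6 FPKM (0.56), outside the central 95% of genes. Dbp, an output factor that binds D-box elements, stood at 12.8, 22.4 and 63.8 FPKM in the light pools and at 83.2, 40.8 and 17.5 FPKM in the dark pools (0.38). The related Tef stood at 33.5 and 38.6 FPKM (0.20) and Bhlhe40, a repressor, at 14.6 and 16.5 FPKM (0.16), with the ZT15 pool highest of the 6 for Dbp, Tef and Bhlhe40. Nr1d1, the REV-ERB alpha repressor, stood at 68.8 FPKM at ZT13 and 68.3 at ZT15 (-0.01), and at 12.2 to 35.4 FPKM elsewhere.

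Other clock genes stood below their later peaks. Per1 was at 6.42 and 6.98 FPKM (0.11) and at 24.2 FPKM at ZT19, Cry2 at 14.2 and 17.6 FPKM (0.28) and at 48.4 FPKM at ZT19, and Per2 at 1.97 and 3.18 FPKM (0.50), under the level threshold, with 6.53 FPKM at ZT19. The activator Arntl, or BMAL1, was low on both sides of lights off, at 3.38 and 2.79 FPKM, against 12.5 FPKM at ZT1. Cry1 (2.54 and 2.61 FPKM) and Nfil3 (0.801 and 0.732 FPKM) were also under the threshold.

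**Figure D5:**
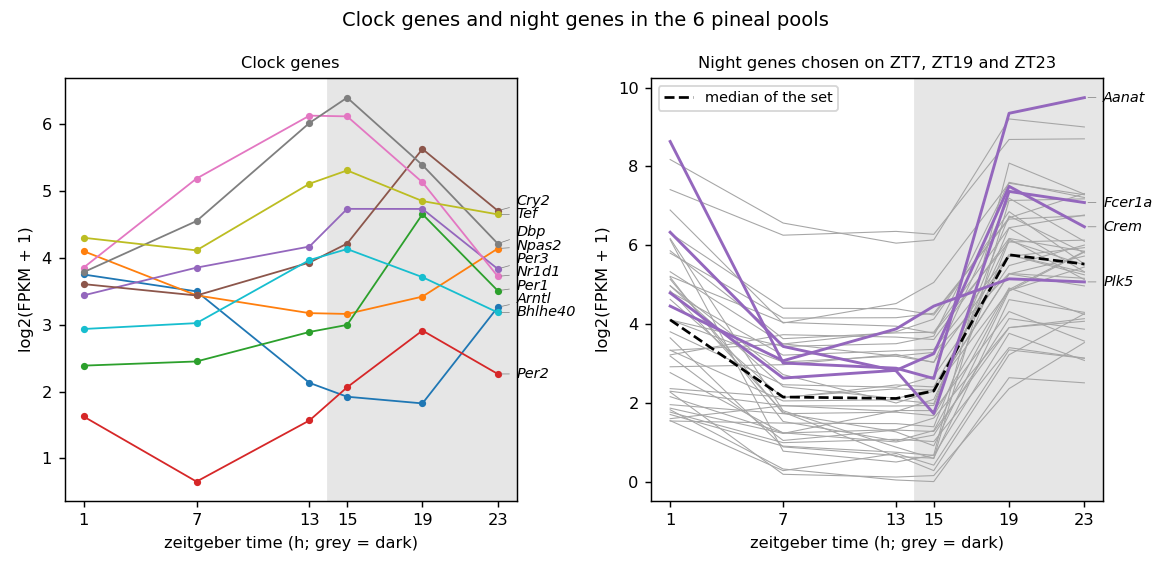
Levels of 10 clock genes (left) and of the 43 night genes (right) in the 6 pineal pools, as log2(FPKM + 1) against zeitgeber time; grey marks darkness, purple lines are the named night genes and the dashed line is the median of the set. Dbp, Tef and Bhlhe40 are highest at ZT15, and the median of the night genes differs little between ZT13 and ZT15 (median difference -0.03).

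The promoters of these genes were searched for the elements through which clock and cyclic AMP signals are known to act. The stretch of 250 bases before each RefSeq gene start (GRCr8) was searched on both strands for CACGTG (E-box, bound by BMAL1 and CLOCK), TGACGTCA (cyclic AMP response element), TTATGTAA (D-box) and the CArG box by its name, the serum response element of immediate early genes. No motif contains another, though the E-box and the cyclic AMP element share the letters ACGT. The windows below show examples of the first 3 kinds of site in genes described here, with the motif in capitals, 5′ to 3′ on the gene's strand.
Crem, cyclic AMP response element, chr17:58984711-58984778, plus strand: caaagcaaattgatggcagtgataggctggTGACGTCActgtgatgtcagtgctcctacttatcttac
Dusp1, cyclic AMP response element, chr10:17184699-17184766, plus strand: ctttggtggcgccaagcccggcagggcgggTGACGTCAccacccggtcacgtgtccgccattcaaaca
Tef, E-box, chr7:115206599-115206664, plus strand: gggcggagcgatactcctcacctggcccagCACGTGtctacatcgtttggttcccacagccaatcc
Bhlhe40, E-box, chr4:143174200-143174265, plus strand: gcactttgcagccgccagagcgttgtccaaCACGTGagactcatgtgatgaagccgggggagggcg
Per2, D-box, chr9:99497148-99497215, minus strand: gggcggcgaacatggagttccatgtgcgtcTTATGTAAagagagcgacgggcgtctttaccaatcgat

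The Crem site starts 56 bases before 1 of its listed gene starts, and another listed start has a second match 35 bases before it. Dusp1, a phosphatase gene of the night set (2.43 and 3.25 FPKM, 0.31), has its match 124 bases before the start, and an E-box further along in the same window. Crem and Dusp1 were the 2 of 38 night genes with a promoter entry that held the cyclic AMP element. Its share was 3.56% of the 5302 genes above 5 FPKM with an entry and 1.78% of all 27457 genes in the table. In the night set 6 of 38 held an E-box (15.8%), 1 of 38 a D-box (Coq10b, 2.63%) and 0 the CArG box. The match starts 198 bases before the gene start in Tef, 220 in Bhlhe40 and 192 in Per2.

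The genes past 2-fold across lights off were too few for their motif shares to be told from those of all genes. Of the 13 rising genes with an entry, 1 held an E-box (Chchd5, 7.69%) and 0 held the other motifs. Of the 14 falling genes with an entry, 1 held an E-box (Slc13a3, 7.14%) and 1 a D-box (Ptgds, 7.14%). E-boxes were found in 8.85% of genes above 5 FPKM and 6.18% of all genes, D-boxes in 0.415% and 0.885%, and CArG boxes in 1.13% and 1.62%. The median difference across lights off was 0.02 for the 469 genes with an E-box, 0.03 for the 189 with a cyclic AMP element, 0.08 for the 22 with a D-box and 0.09 for the 60 with a CArG box, beside 0.02 over all genes.

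Immediate early genes, which respond to stimuli within the hour, are set here beside the retina. In the pineal gland Fos stood at 11.1 and 10.9 FPKM (-0.02) and Egr1 at 5.35 and 5.39 FPKM (0.01). In the retina, between the same times, Fos went from 4.14 to 51.0 FPKM (3.34) and Egr1 from 11.3 to 600 FPKM (5.61). Ier2 stood at 8.12 and 10.9 FPKM in the pineal gland (0.39) and went from 10.6 to 31.9 FPKM in the retina (1.51). Of 10 immediate early genes above 5 FPKM in the pineal gland 0 passed 2-fold, near the 0.596% of all genes. Their median was 0.03, with Ctgf lowest (6.62 and 3.97 FPKM, -0.62) and Btg2 highest (9.78 and 13.6 FPKM, 0.43). Genes called across lights off in both tissues numbered 0, that is 0% of the 38 pineal and 0% of the 9 retinal calls. With 0.596% of pineal and 0.142% of retinal genes called, that count says nothing particular about either tissue. Among the retinal calls, Psmd10 (1.28 in the retina) was just short of the limit in the pineal gland (0.97). With 1 pool for each tissue and time, the difference between the tissues was not tested.

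Stress and hormone response lists held 0 genes past 2-fold, against 0.596% of all genes. Heat shock and chaperone genes had 14 of 17 differences above 0, against 3505 of all 6376 genes, and a median of 0.15. That median was above the upper quartile of all genes (0.12), as were those of the clock (0.16) and pinealocyte (0.16) lists. The highest heat shock genes were Hspa1a, an inducible HSP70 (21.2 and 38.3 FPKM, 0.82), and its partner gene Dnajb1 (18.9 and 29.5 FPKM, 0.62). Hspa1a shares its sequence with the near-identical Hspa1b (0.55) and is uncertain. Endoplasmic reticulum chaperones had a median of -0.01. Glucocorticoid response genes had 8 of 11 below 0 and a median of -0.10, with Sgk1, a kinase, at 40.0 and 34.3 FPKM (-0.22), Fkbp5, a co-chaperone, at 26.1 and 29.8 FPKM (0.19) and Tsc22d3, or GILZ, at 15.3 and 14.6 FPKM (-0.06). The cold-inducible RNA-binding genes Cirbp (36.8 and 43.5 FPKM, 0.23) and Rbm3 (0.15) lay within the central 95% of genes. Metabolic lists had medians of 0.08 (glycolysis), 0.07 (respiratory chain) and -0.01 (cholesterol synthesis), potassium channels -0.04, ID and BMP targets -0.12, and hedgehog and insulin signalling 0.14.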

How the data were processed

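Poly(A)-selected RNA from pooled tissue was primed at random and read as paired ends of 101 bases, per the labels' protocols. TopHat 1.3.1, Cufflinks 1.2.0 and the build rn4 are named in the submitters' processing notes, with no role given. The authors deposited FPKM for each RefSeq transcript in every library. Read counts were not used. As FPKM is relative to a library's own total, a very abundant transcript lowers the rest. Strand was not stated, so genes that overlap on opposite strands cannot be told apart.

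FPKM of 16932 transcripts was summed by gene ID into 16472 genes with pandas 2.3.3 and NumPy 2.4.6 in Python 3.11.15, and figures were drawn with matplotlib 3.10.9. Differences are log2((FPKM + 1) at ZT15 / (FPKM + 1) at ZT13) for genes of at least 5 FPKM in either pool, and a gene was called from 2-fold. With 1 library a group there was no test and no p-value. Depth was estimated from the 10th percentile of FPKM times kilobases over 31 and 34 olfactory receptor transcripts above 0. Alternatives changed the pseudocount, level filter, fold, scaling, transcript and comparison pool.

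Genes were named from the 30 largest differences in each direction outside the choroid plexus list, list members past 2-fold and a set of known pineal, clock and stress genes. Genes and lists were chosen with earlier results of these data known, and listed genes without a match were not analysed here. Some genes counted among the calls are not reported here by name. Promoter sequences are those of RefSeq on GRCr8, matched by gene ID for 12983 genes. Starts in the deposited table count from 0, and 1 was added to those printed.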

Additional observations from a re-analysis of the deposited data

How the results depend on the processing

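Each count rests on 1 pool a side, so none has a replicate check. The 19 higher and 19 lower pineal genes became 5 and 3 with a pseudocount of 5 FPKM, and 27 and 27 with 0.1 FPKM, which kept all 38. A floor of 1 FPKM, or none, gave 30 and 36, a floor of 20 FPKM 4 and 3, the 1.5-fold limit 65 and 86, and the 3-fold limit 6 and 4. Median ratio scaling gave 17 and 16, quantile normalization 16 and 18, and the most abundant transcript per gene 20 and 21. Against the mean of ZT1, ZT7 and ZT13 there were 26 and 13. Of the alternatives chosen after seeing the data, the mean of ZT1 and ZT7 gave 52 and 26, and leaving out choroid plexus list members gave 10 and 19. The median of the choroid plexus list (0.49) was 0.58 and 0.30 with pseudocounts of 0.1 and 5 FPKM, and 1.01 over 16 genes without markers shared with other cells. The 8 higher and 1 lower retinal genes became 8 and 2 with a pseudocount of 0.1 FPKM and 5 and 1 with 5 FPKM. No gene called at 2-fold changed direction under a pseudocount, scaling or transcript alternative. Egr1 went from 0.01 to -0.0074 under quantile normalization, and Ttr lost its difference under quantile normalization. The cause of these shifts was not tested, beyond what the settings themselves fix. Low values carry the largest counting error. No paired analysis was possible because each group had 1 library and the labels carry no replicate numbers.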
